A study of Mus musculus with 3 samples.

Results

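The genes described here are those whose symbol begins with *Kcn* or *Hcn*, which name the potassium channels, their auxiliary subunits and the HCN channels of the mouse. Of 103 such genes in the feature list, 88 had at least 50 counts over the 3 single-nucleus RNA-Seq (snRNA-Seq) libraries of the series and were kept, among 17597 genes of any kind that met the same limit. The other 15 are not described. The 88 comprise 37 pore-forming subunits of voltage-gated (Kv) channels, 11 inward rectifiers, 12 tandem-pore leak channels, 8 calcium- or sodium-activated channels, 4 HCN channels, 12 auxiliary subunits and 4 non-coding or antisense transcripts. A gene was a member by its symbol and total count alone.

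Nuclei came from the prefrontal cortex of male mice of 6 to 8 weeks. There is 1 library for each of 3 groups: wild-type C57BL/6J mice (5 animals pooled), *Nav1* KO mice (4 animals pooled) and BTBR T+ Itpr3tf/J mice, whose number of animals is not given in the labels or methods. The *Nav1* KO mice carry a CRISPR deletion at the end of exon 1 of *Nav1* (neuron navigator 1) on the C57BL/6J background. The sources name no drug or other treatment for these mice. Nuclei were sorted after staining for NeuN, a nuclear protein of neurons. For the C57BL/6J and *Nav1* KO mice, the methods state that NeuN-positive and NeuN-negative nuclei were both collected, to cover different cell types. Values are always given in the order C57BL/6J, *Nav1* KO, BTBR.

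Potassium channels let potassium leave the cell and so set the resting potential, end the action potential and limit firing rate. Kv channels open on depolarization, calcium- and sodium-activated channels after firing, inward rectifiers near rest, and tandem-pore channels carry a background leak. HCN channels pass a mixed cation current on hyperpolarization and share the pore architecture. Auxiliary subunits of the *Kcnip*, *Kcnab* and *Kcnmb* groups change the gating and trafficking of the pores they bind. In cortex, fast-spiking interneurons are known for *Kcnc* channels and astrocytes for *Kcnj10*.

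The libraries kept 14630, 14056 and 14778 nuclei, with 38704723, 50965774 and 48948184 counts and medians of 2074, 2754 and 2510.5 UMIs (counted transcript molecules) per nucleus. Between 55 and 66 cell barcodes were shared by any pair of libraries. The *Nav1* level over all nuclei was 345, 264 and 146 CPM (counts scaled to the total of those nuclei). The counts come from the 3′ ends of transcripts, so they do not check the exon 1 deletion. The labels call the cells neurons, though the methods also name NeuN-negative nuclei. Markers of astrocytes, oligodendrocytes, microglia, vessels, meninges, striatum and olfactory bulb were found. Nuclei were placed in classes by marker lists that hold no *Kcn* or *Hcn* gene, and a class is named only for its resemblance to those markers. The 10 classes used for levels hold 33.4, 37.3 and 35.9% of the kept nuclei. The rest carried too few markers of a single list, markers of several lists, or belonged to smaller classes. Any of 6 olfactory bulb genes (*Meis2*, *Pbx3*, *Tshz1*, *Sp8*, *Th* and *Trh*) kept a nucleus out of the interneuron-like class. This set aside 260, 480 and 441 nuclei that met the interneuron list.

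A signature shared by these channels is the selectivity filter, the stretch of the pore loop that coordinates potassium ions. The longest annotated coding sequence (GENCODE M21, GRCm38, the same assembly as mm10) was searched for a wide form of the potassium channel signature sequence. It allowed threonine, serine or cysteine, then valine, isoleucine or leucine, then glycine, then tyrosine, phenylalanine or leucine, then glycine. This form admits the cysteine of HCN channels and the leucine of some tandem-pore genes, so a match in every pore family is partly built in. It was found in 75 of the 84 protein-coding members, or 89.3%, against 1.52% of 21584 protein-coding genes. All 72 pore-forming members held it. Of the 12 tandem-pore genes, 10 held it at 2 sites. Among the 12 auxiliary genes 3 held a match, the *Kcnab* genes, which encode cytoplasmic proteins without a pore. Their matches rest on the cysteine and leucine that the wide form allows. The sites of 5 members that recur below are shown, 5′ to 3′ on the coding strand, to let the families be compared. Capitals mark the 5 filter codons.
Kcnc1: accatgacgACACTGGGCTATGGAgacatg
Kcnc2: accatgactACCTTAGGTTACGGGgatatg
Kcns3: agtatgaccACAGTGGGCTATGGAgacacc
Kcnk2: actctgacgACCATTGGATTTGGAgactac
Kcnj10: tcccagaccACCATCGGCTATGGCttccgc

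The *Kcnc1* site lies in exon 2 at chr7:46427964-46427993 (plus strand), and the *Kcnc2* site lies in exon 3 at chr10:112456220-112456249 (plus strand). The *Kcns3* site is in exon 3 at chr12:11091569-11091598 (minus strand). The second of the paired *Kcnk2* sites is in exon 5 at chr1:189256575-189256604 (minus strand). The *Kcnj10* site is in exon 2 at chr1:172369293-172369322 (plus strand).

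To see where each channel gene was expressed, the counts of a class were summed per library and given as CPM. For 39 of the 88 members the highest of the 10 classes was the same in all 3 libraries, or 44.3%, against 22.5% of all 17597 genes. Of these 39, 10 were highest in interneuron-like nuclei, 9 in excitatory-like, 6 in medium spiny neuron-like, 5 in astrocyte-like and 3 in olfactory bulb interneuron-like nuclei. Another 2 were highest in oligodendrocyte precursor-like nuclei, and oligodendrocyte-like, microglia-like, endothelial-like and meningeal fibroblast-like nuclei had 1 each. The widest range over classes was that of *Kcnmb2*, *Kcnh8* and *Kcnj8*, and the narrowest that of *Kcnq1ot1*, *Kcnab2* and *Kcnk15*. *Kcnj8* and *Kcnk15* had 23 and 25 counts over all of these classes and libraries, so little can be read from their ranges.

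**Figure D1:**
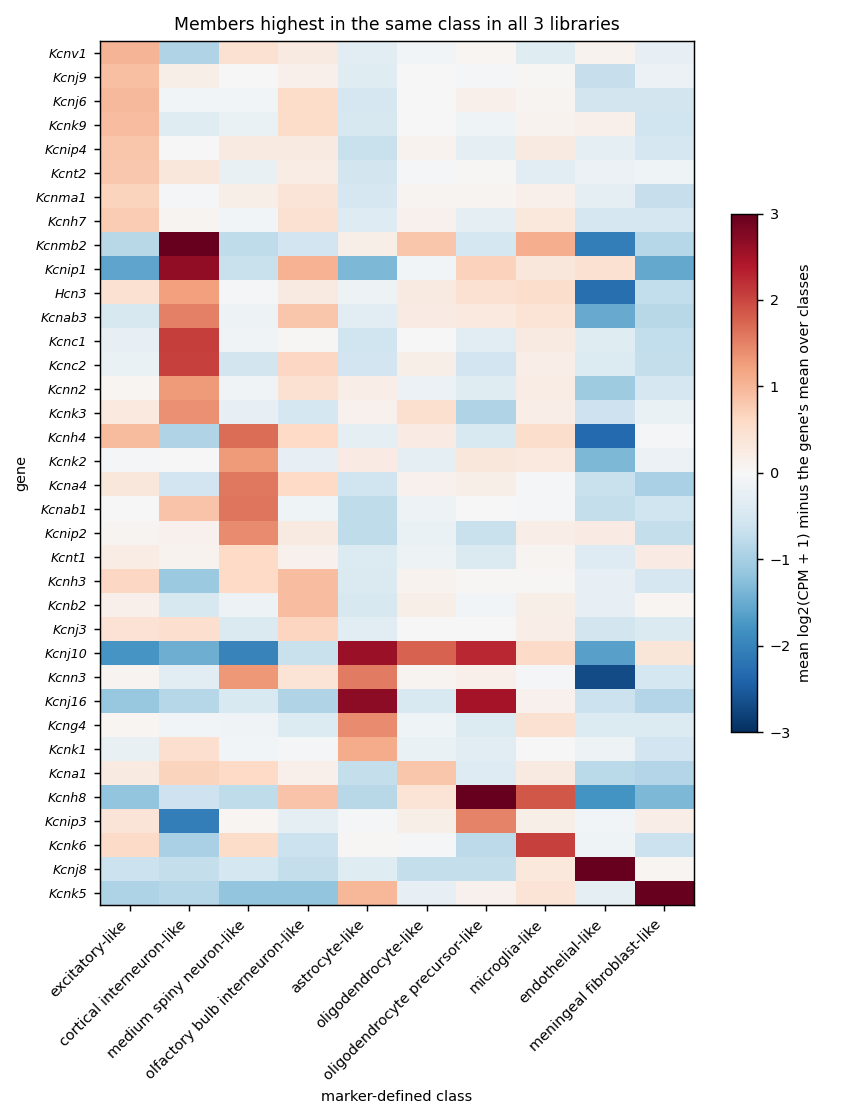
Heat map of 36 of the 39 members whose highest class was the same in all 3 libraries. Rows are genes, columns the 10 marker-defined classes, and color is the mean log2(CPM + 1) over libraries minus the mean of that gene over classes, from blue (low) to red (high). *Kcnmb2*, *Kcnip1*, *Kcnc1* and *Kcnc2* are red in interneuron-like nuclei, and *Kcnj10* and *Kcnj16* in both astrocyte-like and oligodendrocyte precursor-like nuclei.

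*Kcnq1ot1*, the long RNA transcribed antisense to *Kcnq1* in an imprinted region, gave the most counts of any member. Its levels were 2329.7, 2322 and 1868 CPM in excitatory-like and 1472, 1305 and 1186 CPM in astrocyte-like nuclei. Other members with a high level in every class were the large-conductance calcium-activated channel *Kcnma1* and the sodium-activated channel *Kcnt1*. *Kcnma1* was at 504, 558 and 504 CPM in excitatory-like and 241, 215 and 242 CPM in astrocyte-like nuclei. *Kcnt1* was at 396, 447 and 554 CPM in medium spiny neuron-like and 193, 243 and 262 CPM in astrocyte-like nuclei. Neuronal transcripts were present in astrocyte-like nuclei, as given below. How much of these astrocyte-like levels they make up was not tested.

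*Kcnh8*, an ELK-type Kv channel, had a wide range. Its level in oligodendrocyte precursor-like nuclei was 46.6, 25.4 and 39.1 CPM, and in excitatory-like nuclei 0.47, 0.434 and 0.65 CPM. *Kcnip3*, which encodes a calcium-binding protein known both as a Kv auxiliary and as a transcriptional repressor, was also highest in oligodendrocyte precursor-like nuclei, at 88.9, 78.1 and 61.4 CPM. *Kcnj8* is the pore of the ATP-sensitive channel of vessel walls. It had 3, 1 and 8 counts in endothelial-like nuclei, or 48.5, 5.35 and 53.3 CPM, and 3, 8 and 4 counts in the 8, 22 and 21 pericyte or smooth muscle-like nuclei. In interneuron-like nuclei it had no count in any library.

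Interneuron-like nuclei (418, 259 and 435) were compared with excitatory-like nuclei (2111, 2156 and 2166) to ask which channels distinguish inhibitory from excitatory cortical neurons. *Kcnc1* and *Kcnc2*, linked to fast firing, were higher in interneuron-like nuclei, while the related *Kcnc4* did not reach the limits given next. Several silent Kv subunits and leak channels were lower, but the silent subunit *Kcns3* and the leak channel *Kcnk3* were higher. The G protein-gated *Kcnj6* was lower. Of the 88 members 71 passed the count filter, and 26 were called at an edgeR adjusted p under 0.05 with at least a 2-fold difference, 11 higher and 15 lower. Of all 13101 genes tested, 13.0% were called, 6.53% higher and 6.46% lower. The median log2 fold change was -0.19 over the members tested and about 0 over all genes. Each library served as a replicate of both classes. The 3 libraries differ in genotype and strain, and the library block takes up their differences in level. The p-values set the class difference against a spread over these 3 libraries that edgeR estimates with information shared over all genes tested. A small p-value therefore does not rest on the spread of that gene alone.

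Among Kv pores, 5 of 33 tested were higher and 9 lower. *Kcnc1* and *Kcnc2* encode Shaw-type channels that repolarize quickly and permit fast firing. *Kcnc1* (chr7:46396497-46438704, GRCm38) was at 607, 668 and 583 CPM in interneuron-like and 128, 119 and 124 CPM in excitatory-like nuclei (log2 fold change 2.18, SE 0.07, edgeR adjusted p = 8.38e-22). All interneuron-like values lay above all excitatory-like values. *Kcnc2* was at 182, 187 and 185 CPM against 37.2, 39.2 and 38.4 CPM (log2 fold change 2.13, SE 0.09, edgeR adjusted p = 4.62e-18), again without overlap. *Kcnc4* was at 11.8, 10.8 and 23.1 CPM against 18.5, 18.1 and 18.9 CPM and was not called.

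*Kcns3*, a silent subunit that works only together with *Kcnb* pores, had the largest fold of the members in this comparison, though it lies below the level limit set for named genes in BTBR. It was at 67.9, 47.9 and 9.23 CPM in interneuron-like and 1.41, 1.41 and 0.39 CPM in excitatory-like nuclei (log2 fold change 5.07, SE 0.29, edgeR adjusted p = 2.86e-15). The groups did not overlap, but the BTBR interneuron-like value was the lowest of that class by a wide margin.

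Lower in interneuron-like nuclei was *Kcnv1*, a silent subunit, at 26.6, 11.96 and 16.6 CPM against 93.1, 71.2 and 50.7 CPM (log2 fold change -2.06, SE 0.17, edgeR adjusted p = 1.26e-11). *Kcnh3*, an ELK-type channel, was at 33.5, 34.7 and 29.6 CPM against 116, 107 and 108 CPM (log2 fold change -1.91, SE 0.13, edgeR adjusted p = 1.54e-13). *Kcna4*, an A-type Shaker channel, was at 49.2, 34.7 and 42.5 CPM against 86.8, 72.4 and 82.6 CPM (log2 fold change -1.07, SE 0.13, edgeR adjusted p = 3.22e-08). The groups overlapped for none of them. The call on *Kcna4* sat at the 2-fold limit and was lost with total counts in place of TMM, with a stricter marker gate, with nuclei placed by their best-fitting marker profile and without the deepest nuclei (log2 fold changes -0.93, -0.77, -0.86 and -0.9996). Total counts moved the median of all genes by 0.14. Also called among the Kv pores were *Kcnh2* (higher) and *Kcng1*, *Kcng2*, *Kcng3*, *Kcnh4*, *Kcnh5* and *Kcns1* (lower). Calls were lost without the C57BL/6J or the *Nav1* KO library for *Kcns1* (adjusted p 0.183 and 0.053), without the *Nav1* KO or BTBR library for *Kcng2* (adjusted p 0.0779 and 0.185), and without BTBR for *Kcnh5* (log2 fold change -0.77). With best-fitting profiles the calls on *Kcnh2*, *Kcng1*, *Kcng2* and *Kcns1* were also lost (log2 fold changes 0.96, -0.48, -0.34 and -0.99), and DESeq2 called none of *Kcng1*, *Kcng2*, *Kcng3* and *Kcns1*.

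Auxiliary genes gave 3 higher and 1 lower of 9 tested. *Kcnmb2*, the subunit that makes large-conductance calcium-activated channels inactivate, was at 52.2, 55.04 and 38.8 CPM in interneuron-like and 1.25, 1.09 and 1.82 CPM in excitatory-like nuclei (log2 fold change 4.96, SE 0.27, edgeR adjusted p = 7.17e-16). *Kcnip1*, which binds A-type *Kcnd* channels, was at 92.5, 100.5 and 98.8 CPM against 3.76, 3.69 and 5.2 CPM (log2 fold change 4.38, SE 0.17, edgeR adjusted p = 2.42e-19). Both were near absent from excitatory-like nuclei in every library. *Kcnab3*, a beta subunit of Shaker channels, was at 31.5, 40.7 and 35.1 CPM against 6.43, 9.77 and 8.84 CPM (log2 fold change 1.96, SE 0.20, edgeR adjusted p = 2.64e-09). Its annotation overlaps that of the antisense transcript *Kcnab3os*, and the sources do not say whether reads were counted by strand. *Kcnip3* was at 6.89, 8.37 and 2.77 CPM against 39.0, 35.7 and 30.2 CPM (log2 fold change -2.72, SE 0.26, edgeR adjusted p = 4.8e-10), so this auxiliary went opposite to its relative *Kcnip1*. *Kcnmb4* was at 24.6, 16.7 and 30.5 CPM against 36.2, 36.7 and 41.9 CPM and was not called.

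Of the HCN channels, *Hcn3* was at 24.6, 34.7 and 31.4 CPM in interneuron-like and 16.5, 15.0 and 20.3 CPM in excitatory-like nuclei (log2 fold change 0.66). *Hcn2* was at 16.7, 21.5 and 36.9 CPM against 16.6, 17.0 and 19.6 CPM, where the C57BL/6J interneuron-like value lies within the excitatory-like range, and *Hcn4* stayed under 5 CPM in both classes. None of these 3 passed both limits. The small-conductance calcium-activated *Kcnn2* was higher at 215, 177 and 219.8 CPM against 97.7, 79.3 and 81.0 CPM (log2 fold change 1.11, SE 0.09, edgeR adjusted p = 3.78e-12). With nuclei placed by best-fitting profile its log2 fold change was 0.49 and the call was lost. *Kcnma1* was at 344, 319 and 301 CPM against 504, 558 and 504 CPM, under 2-fold.

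Inward rectifiers gave 2 lower of 8 tested. *Kcnj6*, a G protein-gated channel through which neurotransmitter receptors quiet neurons, was at 81.7, 67.0 and 60.9 CPM in interneuron-like and 157, 145 and 137 CPM in excitatory-like nuclei (log2 fold change -1.21, SE 0.10, edgeR adjusted p = 3.83e-11). *Kcnj2*, a strong rectifier that holds the resting potential, was at 1.97, 2.39 and 5.54 CPM against 17.9, 11.1 and 10.8 CPM (log2 fold change -2.09, SE 0.39, edgeR adjusted p = 6.19e-05). The other G protein-gated subunits were not called: *Kcnj3* was at 65.0, 61.0 and 65.6 CPM against 52.0, 63.9 and 66.3 CPM, and *Kcnj9* at 80.7, 92.1 and 94.2 CPM against 149, 143 and 149 CPM. Of 7 tandem-pore genes tested, 3 were lower and 1 higher. *Kcnk9* and *Kcnk3* both encode acid-sensitive leak channels and had opposite signs. *Kcnk9* was at 86.6, 69.4 and 54.5 CPM against 212, 169 and 137 CPM (log2 fold change -1.44, SE 0.10, edgeR adjusted p = 3.04e-13) and *Kcnk3* at 18.7, 22.7 and 22.2 CPM against 8.46, 9.34 and 10.7 CPM (log2 fold change 1.01, or 0.94 without the *Nav1* KO library). *Kcnk4* and *Kcnk10* were the others called lower. With best-fitting profiles the calls on *Kcnk3* and *Kcnk10* were lost (log2 fold changes 0.93 and -0.74), as was that on *Kcnk3* with the stricter gate (0.92).

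**Figure D2:**
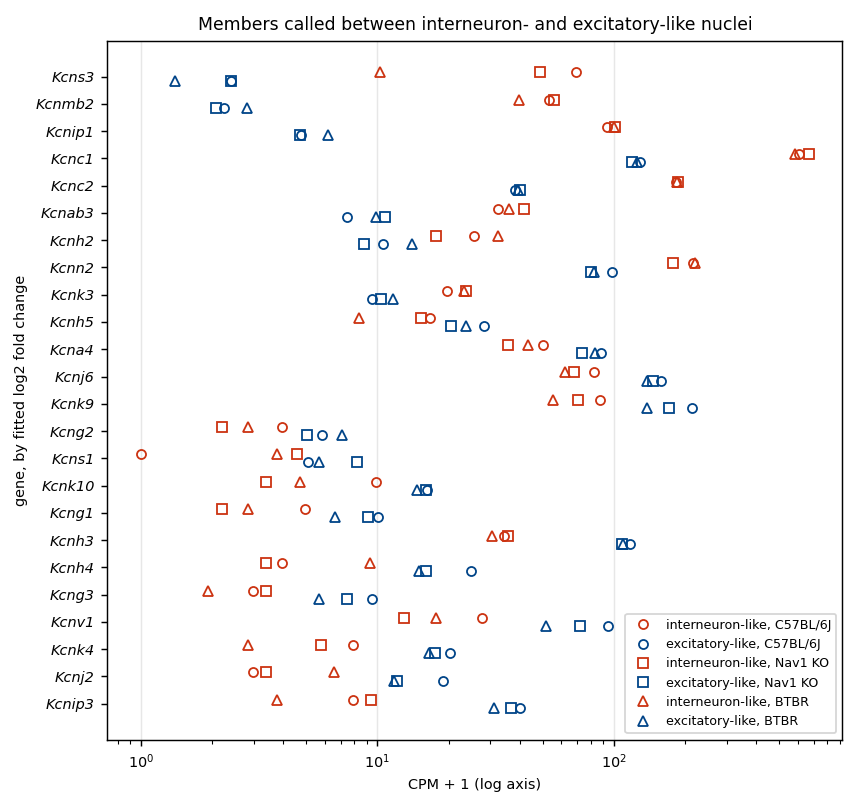
Level (CPM + 1, log axis) of 24 of the 26 called members in interneuron-like (red) and excitatory-like (blue) nuclei, 1 symbol per library (circle C57BL/6J, square *Nav1* KO, triangle BTBR), ordered by fold change. Red and blue symbols do not overlap within a gene, and *Kcns3* in BTBR interneuron-like nuclei lies far below the other libraries.

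Of 17 partner genes of these channels that are not members, 12 were tested. *Cntnap2*, which gathers Shaker channels at the juxtaparanode, was at 211, 189 and 209.6 CPM in interneuron-like and 53.1, 48.4 and 49.7 CPM in excitatory-like nuclei (log2 fold change 1.87, SE 0.09, edgeR adjusted p = 2.45e-17), and *Dpp6*, an accessory of *Kcnd* channels, was also higher (log2 fold change 1.17). *Pex5l*, which binds and traffics HCN channels, was lower at 123, 114 and 122 CPM against 277, 326 and 256 CPM (log2 fold change -1.38, SE 0.09, edgeR adjusted p = 4.36e-14). *Lrrc55*, a gamma subunit of the large-conductance channel, was lower as well (log2 fold change -1.27).

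Within interneuron-like nuclei, those with *Pvalb* markers (35, 30 and 28 nuclei) were compared with those with *Sst* markers (69, 53 and 67). *Pvalb* marks fast-spiking basket and chandelier cells and *Sst* marks cells that target dendrites. These sums are small, and 24 members passed the filter. The filter asks for a minimum level in as many sums as a class has. A gene could therefore pass through its higher class alone. The split and median below describe these 24 only and are no support for a shift of all members. Of these, 7 were higher in *Pvalb*-like nuclei and none was lower, where 12.5% of 3141 genes were called (4.17% higher and 8.34% lower). The members tested had a median log2 fold change of 0.65, against 0.01 over all genes. The count depended on how nuclei were assigned: placing each nucleus by its best-fitting marker profile gave 5 higher and 6 lower of 53 tested, 4 of them shared with the 7, and DESeq2 on the same sums called 4, all higher.

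*Kcnc1* was at 1231, 1386 and 1069 CPM in *Pvalb*-like and 423, 362 and 384 CPM in *Sst*-like nuclei (log2 fold change 1.63, SE 0.14, edgeR adjusted p = 4.89e-09). *Kcnc2* was at 379, 328 and 318 CPM against 169, 146 and 227 CPM, a log2 fold change of 0.91. Both subclasses lay above the excitatory-like level for *Kcnc1* and *Kcnc2*. *Kcna1*, a low-threshold Shaker channel of axons, was at 559, 723 and 667 CPM against 186, 264 and 314 CPM (log2 fold change 1.33, SE 0.17, edgeR adjusted p = 3.39e-06). *Kcnh7*, an ERG-type channel, was at 370.1, 246 and 191 CPM against 78.9, 91.7 and 70.3 CPM (log2 fold change 1.69, SE 0.27, edgeR adjusted p = 7.26e-05).

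*Kcnip2*, the A-type auxiliary, showed the largest difference at 138, 112 and 233 CPM in *Pvalb*-like and 28.2, 27.0 and 16.2 CPM in *Sst*-like nuclei (log2 fold change 2.66, SE 0.41, edgeR adjusted p = 4.53e-05). Its *Sst*-like values rest on few counts in each library, so the size of this fold is uncertain. *Kcnab1* was at 189, 157 and 127 CPM against 50.8, 75.6 and 64.9 CPM (log2 fold change 1.27, SE 0.32, edgeR adjusted p = 0.00627), and lost its call without the C57BL/6J library (adjusted p 0.0992). *Kcnn2* was at 120.5, 104 and 95.3 CPM against 62.0, 37.8 and 37.9 CPM (log2 fold change 1.19, SE 0.37, edgeR adjusted p = 0.0273), and lost it when the C57BL/6J, *Nav1* KO or BTBR library was left out (adjusted p 0.0733, 0.164 and 0.108). DESeq2 called neither *Kcnab1* nor *Kcnn2* (adjusted p 0.239 and 0.419), and with best-fitting profiles *Kcnh7*, *Kcnab1* and *Kcnn2* fell short of 2-fold (log2 fold changes 0.91, 0.77 and 0.87). The groups did not overlap for any of the 7, which were chosen by fold and adjusted p on the same values. Of 8 partner genes tested, 1 was called: *Lgi1*, a secreted protein that acts on Shaker channels, was lower at 68.9, 59.6 and 52.9 CPM against 141, 135 and 114 CPM (log2 fold change -1.12, SE 0.34, edgeR adjusted p = 0.0206).

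*Kcnn2* was highest in *Lamp5* or *Ndnf* interneuron-like nuclei (56, 40 and 70), at 498, 486 and 467 CPM. *Vip*-like nuclei (35, 22 and 51) followed at 233, 320.4 and 207 CPM, then *Pvalb*-like and *Sst*-like nuclei with the values above. The ranges of these 4 subclasses did not overlap, and this order was not tested. *Kcnk2* had another order, with 299, 405 and 341 CPM in *Sst*-like and 116, 50.6 and 69.0 CPM in *Vip*-like nuclei. *Kcns3* counts were 12, 8 and 1 in *Pvalb*-like nuclei, or 103, 59.6 and 10.6 CPM. *Kcnq5*, an M-current pore, had no count in *Pvalb*-like nuclei of any library, which allows up to 25.8, 22.4 and 31.8 CPM at 3 counts per library, and was at 76.0, 73.9 and 47.4 CPM in *Lamp5* or *Ndnf* interneuron-like nuclei.

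**Figure D3:**
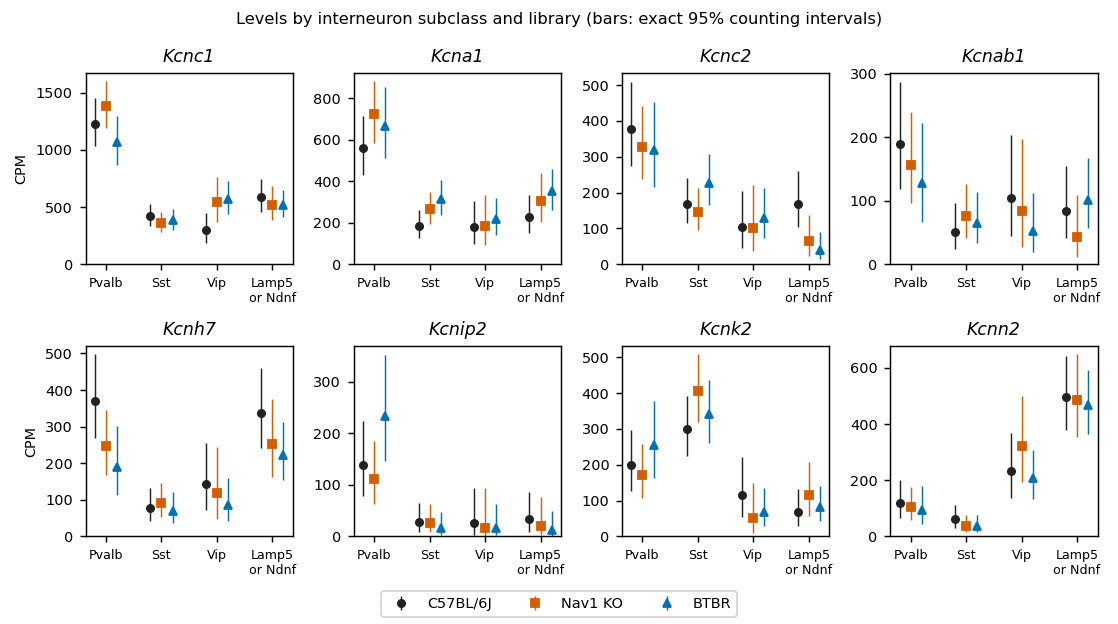
Level (CPM) of 8 members in 4 interneuron subclasses, 1 symbol per library with exact 95% counting intervals. *Kcnc1*, *Kcna1* and *Kcnip2* are highest in *Pvalb*-like nuclei and *Kcnn2* in *Lamp5* or *Ndnf* interneuron-like nuclei in all 3 libraries.

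Layer 6 corticothalamic-like nuclei (249, 262 and 244) were compared with layer 2/3-like nuclei (294, 371 and 339), the deep and the upper excitatory neurons of cortex. Of 53 members tested 1 was higher and 7 were lower in layer 6, with 6.19% of 9850 genes called (2.71% higher and 3.48% lower). With total counts in place of TMM the split was 2 higher and 6 lower, and DESeq2 called 1 higher and 4 lower. *Kcnk2*, a leak channel opened by stretch and lipids, was at 216, 261 and 279 CPM in layer 6 and 108, 99.2 and 97.3 CPM in layer 2/3 (log2 fold change 1.25, SE 0.10, edgeR adjusted p = 1.55e-09), with no overlap. This call was lost with the stricter marker gate (log2 fold change 0.51, adjusted p 0.303). Middle layer-like nuclei stood higher still, at 378, 344 and 377 CPM.

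*Kcnip4*, a KChIP auxiliary of A-type channels, was at 73.4, 201 and 129.7 CPM in layer 6 and 326, 463 and 434 CPM in layer 2/3 (log2 fold change -1.65, SE 0.11, edgeR adjusted p = 7.79e-11). Every layer 2/3 value lay above every layer 6 value, and the C57BL/6J library was lowest in both. *Kcnc2* was at 16.9, 17.7 and 24.3 CPM against 48.5, 61.2 and 61.1 CPM (log2 fold change -1.63, SE 0.20, edgeR adjusted p = 1.32e-06). *Kcnq5* was at 22.6, 29.3 and 34.7 CPM against 74.6, 63.4 and 83.0 CPM (log2 fold change -1.38, SE 0.17, edgeR adjusted p = 1.71e-06). *Kcnb2*, a delayed rectifier, was at 36.7, 57.6 and 45.2 CPM against 108, 120.2 and 95.8 CPM (log2 fold change -1.26, SE 0.14, edgeR adjusted p = 2.74e-07).

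*Kcnh4*, *Kcnj2* and *Kcnh5* were also called lower but were each lost without some library, and DESeq2 called none of them. *Kcnh4* was at 25.4, 10.6 and 5.79 CPM in layer 6 and 27.1, 28.1 and 24.9 CPM in layer 2/3, where the groups overlap (log2 fold change -1.12, or -0.90 without *Nav1* KO and -0.84 without BTBR). *Kcnj2* had adjusted p 0.114 without C57BL/6J and 0.133 without BTBR, and *Kcnh5* 0.0607 without *Nav1* KO and 0.165 without BTBR. Of the 12 partner genes tested, *Lrrc55* was called, higher at 36.7, 23.9 and 26.6 CPM in layer 6 against 9.33, 9.92 and 6.03 CPM in layer 2/3. *Kcnn2* was at 166, 145 and 169 CPM in layer 5 extratelencephalic-like nuclei (82, 133 and 112) and 73.7, 64.0 and 62.6 CPM in layer 2/3-like nuclei. The ranges of these subclasses did not overlap, and the difference was not tested.

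Medium spiny neuron-like nuclei (889, 454 and 557), the projection neurons of the striatum, were compared with excitatory-like nuclei. Of 70 members tested 6 were higher and 4 lower, with 5.63% of 13259 genes called (3.85% higher and 1.79% lower). A stricter marker gate gave 6 higher and 11 lower, and leaving out the deepest nuclei 8 higher and 10 lower. The share of all genes called under these settings is not given here. *Kcnk2* was at 524, 507 and 432 CPM in medium spiny neuron-like nuclei and 186, 189 and 199 CPM in excitatory-like nuclei (log2 fold change 1.35, SE 0.07, edgeR adjusted p = 1.63e-13). *Kcna4*, lower in cortical interneuron-like nuclei, was here higher at 237, 183 and 161 CPM against 86.8, 72.4 and 82.6 CPM (log2 fold change 1.26, SE 0.08, edgeR adjusted p = 3.58e-11). Both comparisons share the excitatory-like nuclei.

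The auxiliaries *Kcnab1* and *Kcnip2* and the calcium-activated *Kcnn3* completed the higher set, with *Kcnip1* at low level. *Kcnab1* was at 201, 142 and 127 CPM against 64.1, 50.7 and 38.8 CPM (log2 fold change 1.61, SE 0.08, edgeR adjusted p = 1.1e-13). *Kcnip2* was at 138, 103 and 121 CPM against 44.05, 42.8 and 54.2 CPM (log2 fold change 1.36, SE 0.10, edgeR adjusted p = 7e-11). *Kcnn3* was at 34.3, 23.4 and 28.0 CPM against 12.9, 11.6 and 10.3 CPM (log2 fold change 1.30, SE 0.15, edgeR adjusted p = 4.69e-07). None of these groups overlapped. *Kcnip1* was at 7.2, 9.06 and 10.2 CPM against 3.76, 3.69 and 5.2 CPM (log2 fold change 1.06, or 0.95 without *Nav1* KO), and its call was lost with DESeq2 and without the deepest nuclei (adjusted p 0.086 and 0.107).

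Lower in medium spiny neuron-like nuclei was *Kcnk9*, at 74.1, 89.7 and 67.6 CPM against 212, 169 and 137 CPM (log2 fold change -1.15), then *Kcnj6*, at 56.7, 87.8 and 65.9 CPM against 157, 145 and 137 CPM (-1.07), and the sodium-activated *Kcnt2*, at 30.9, 28.1 and 42.5 CPM against 76.8, 58.0 and 76.0 CPM (-1.05). Without the C57BL/6J library these 3 fell short of 2-fold (log2 fold changes -0.96, -0.89 and -0.92), as did *Kcnt2* with best-fitting profiles (-0.91). *Kcnk4* was the fourth, and of 12 partner genes tested *Sidt1* was called, lower. *Kcnk2* was at 439, 474 and 413 CPM in the *Drd1* subclass and 616, 661 and 443 CPM in the *Drd2* subclass, ranges that overlap. *Kcnj4*, an inward rectifier of striatal neurons, was at 78.3, 78.2 and 81.2 CPM in medium spiny neuron-like and 43.9, 49.6 and 60.2 CPM in excitatory-like nuclei, without overlap but under 2-fold. The *Slc17a7* level of medium spiny neuron-like nuclei was 32.0, 47.9 and 41.7% of that of excitatory-like nuclei.

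Astrocyte-like nuclei (521, 944 and 737) were compared with the sum of excitatory-like and interneuron-like nuclei. Neuronal transcripts were present in them: *Slc17a7*, the vesicular glutamate transporter of excitatory neurons, stood at 34.1, 31.4 and 32.2% of its excitatory-like level. Over the 8 excitatory markers, the summed level was 533 to 546 CPM in astrocyte-like nuclei and 1956 to 2013 CPM in excitatory-like nuclei, with no marker at 0. *Snap25*, a synaptic protein of neurons in general, stood at 46.0, 42.5 and 46.0% of its excitatory-like level. *Gad1*, which marks inhibitory neurons, stood at 448, 287 and 343% of its excitatory-like level. In interneuron-like nuclei *Gad1* was at 3326, 1998 and 1814% of that same level. Whether these transcripts come from free RNA, doublets or misplaced nuclei was not tested. A neuronal channel at or below the *Slc17a7* or *Snap25* share of its excitatory-like level is not read as astrocyte expression. Of 74 members tested 4 were higher and 20 lower, with 20.8% of 14162 genes called (14.2% higher and 6.57% lower). The members tested had a median log2 fold change of -0.68, against -0.02 over all genes.

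The inward rectifiers of astrocytes were among the 4 higher members. *Kcnj10*, the main inward rectifier by which astrocytes take up potassium, was at 33.5, 43.2 and 48.6 CPM in astrocyte-like nuclei and 0.947, 0.896 and 1.6 CPM in neurons (log2 fold change 5.24, SE 0.23, edgeR adjusted p = 9.92e-16). *Kcnj16*, which assembles with it, was at 16.3, 19.2 and 17.3 CPM against 0, 0.597 and 0.57 CPM (log2 fold change 5.38, SE 0.39, edgeR adjusted p = 2.01e-11). Both were near absent from neurons in each library. Oligodendrocyte precursor-like nuclei held them too, with *Kcnj10* at 29.6, 33.2 and 35.3 CPM and *Kcnj16* at 12.7, 17.6 and 16.7 CPM. *Kcnk1*, a leak channel of astrocytes, was at 73.4, 85.2 and 97.6 CPM against 31.1, 34.6 and 42.0 CPM (log2 fold change 1.31, SE 0.10, edgeR adjusted p = 6.78e-11), and *Kcnn3* at 36.2, 34.4 and 32.2 CPM against 12.3, 11.3 and 10.0 CPM (log2 fold change 1.67, SE 0.16, edgeR adjusted p = 2.49e-09).

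The lower set included 10 Kv pores, 3 auxiliaries, 2 calcium- or sodium-activated channels, 2 inward rectifiers and 2 tandem-pore genes. *Kcnip4* was at 96.0, 130.3 and 102 CPM against 222, 368 and 316 CPM (log2 fold change -1.42). *Kcnj6* was at 55.2, 46.8 and 52.4 CPM against 147, 139 and 128 CPM (log2 fold change -1.37). No astrocyte-like value of either gene reached a neuronal value. *Kcnt2*, *Kcnk9*, *Kcnv1* and *Kcnj9* followed, with log2 fold changes of -1.31, -1.29, -1.23 and -1.19. For *Kcnh4* and *Kcns3* the groups overlapped, and without *Nav1* KO both lost the call (log2 fold change -0.83 for *Kcnh4*, adjusted p 0.152 for *Kcns3*). So did *Kcnmb4* (log2 fold change -0.94), *Kcns1* (adjusted p 0.182) and *Kcna3* (adjusted p 0.156) without *Nav1* KO, and without BTBR *Kcnmb4* (log2 fold change -0.96), *Kcns1*, *Kcna3* and *Kcns3* (adjusted p 0.0882, 0.191 and 0.0838). Without the library block *Kcnh4*, *Kcns1*, *Kcna3* and *Kcns3* had adjusted p of 0.0566, 0.105, 0.0514 and 0.361, and the stricter gate left *Kcnv1* and *Kcnmb4* short of 2-fold (log2 fold changes -0.996 and -0.85). Several others sat near the limit: without *Nav1* KO, *Kcnma1* and *Kcnq3* fell short of 2-fold (log2 fold changes -0.92 and -0.98), and without BTBR so did *Kcnh7* and *Kcnq5* (-0.98 and -0.90). *Kcna2* was the Kv pore with the highest level in astrocyte-like nuclei relative to neurons among those fixed by role, at 152, 201 and 165 CPM against 123, 123 and 119 CPM (log2 fold change 0.57), without reaching 2-fold. Of 12 partner genes tested, 5 were lower (*Cntnap2*, *Ank3*, *Pex5l*, *Dpp10* and *Sidt1*).

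Oligodendrocyte-like nuclei (481, 370 and 351) held more neuronal transcripts, with *Slc17a7* at 47.2, 47.7 and 51.3% of the excitatory-like level and an excitatory marker sum of 755 to 845 CPM. At that level a 2-fold loss of a neuronal gene is at the edge of what could be called. Of 71 members tested 2 were higher and 2 lower, with 9.73% of 13798 genes called (8.73% higher and 0.993% lower), and edgeR called none of 12 partner genes, of which 7 had an unadjusted p under 0.05. Without the deepest nuclei 2 members were higher and 13 lower, and the share of all genes called in that setting is not given here. *Kcnj10* was at 17.7, 27.8 and 24.2 CPM in oligodendrocyte-like nuclei and 0.947, 0.896 and 1.6 CPM in neurons (log2 fold change 4.30, SE 0.31, edgeR adjusted p = 2.77e-10). *Kcnk13*, a leak channel known in microglia and oligodendrocytes, was at 6.16, 15.7 and 12.4 CPM against 1.08, 1.29 and 1.94 CPM (log2 fold change 2.95, SE 0.36, edgeR adjusted p = 1.2e-06), and its microglia-like level was similar at 10.2, 10.4 and 11.6 CPM. *Kcnv1* was at 41.6, 33.5 and 22.8 CPM against 84.0, 66.3 and 46.5 CPM (log2 fold change -1.03, SE 0.13, edgeR adjusted p = 1.35e-06), a call lost with the stricter gate and with best-fitting profiles (log2 fold changes -0.78 and -0.98). *Kcnk4* was also lower (log2 fold change -1.23). *Kcna1* was highest of the 10 classes in oligodendrocyte-like nuclei at 329, 383 and 408 CPM, against 221, 255 and 272 CPM in excitatory-like nuclei. This level was not called over neurons.

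In the remaining classes the levels were described without a test. *Kcnk6*, a tandem-pore gene, was highest in microglia-like nuclei (111, 170 and 227) at 8.14, 16.9 and 5.45 CPM. It had 128 counts over all 10 classes and the libraries together, so its microglia-like values rest on few counts. In meningeal fibroblast-like nuclei (155, 430 and 322) *Kcnk5* was at 24.4, 23.3 and 12.3 CPM, with 0, 0.217 and 0.39 CPM in excitatory-like nuclei. *Kcnj13*, an inward rectifier of epithelia, was at 41.8, 45.7 and 46.0 CPM in fibroblast-like and 19.4, 13.7 and 11.3 CPM in excitatory-like nuclei. Among the 10 classes its level in every other class but endothelial-like stayed below the fibroblast-like value of the same library. *Kcnb2* was highest in olfactory bulb interneuron-like nuclei (68, 209 and 257) at 109, 147 and 174 CPM. *Kcna3*, the Shaker channel best known in immune cells, was at 2.04, 0 and 1.36 CPM in microglia-like and 5.91, 4.79 and 4.62 CPM in interneuron-like nuclei, which are few counts in each.

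**Figure D4:**
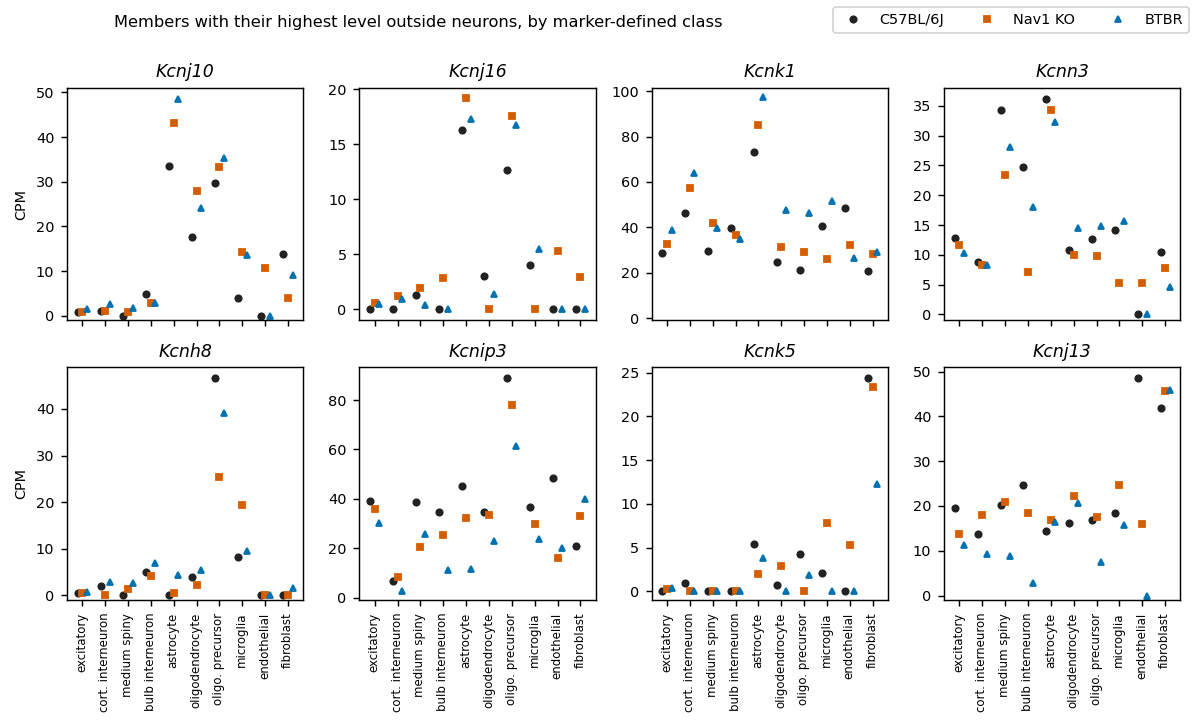
Level (CPM) in the 10 marker-defined classes, 1 symbol per library. The 8 members shown had their highest mean in astrocyte-like, oligodendrocyte precursor-like or meningeal fibroblast-like nuclei. *Kcnj10* and *Kcnj16* stand highest in astrocyte-like and oligodendrocyte precursor-like nuclei, *Kcnh8* in oligodendrocyte precursor-like and *Kcnk5* in meningeal fibroblast-like nuclei.

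Some members that lie next to each other in the genome were highest in different classes. *Kcnj9* (chr1:172320501-172329318) and *Kcnj10* (chr1:172341210-172374085) are 11.891 kb apart on chromosome 1 on opposite strands. *Kcnj9* was at 149, 143 and 149 CPM in excitatory-like nuclei, whereas *Kcnj10* was at 0.941, 0.869 and 1.43 CPM. On chromosome 11 *Kcnj16* (chr11:110968033-111027968) and *Kcnj2* (chr11:111066164-111076821) lie 38.195 kb apart on the same strand. *Kcnj16* was highest in astrocyte-like nuclei and *Kcnj2* had its highest mean in medium spiny neuron-like nuclei, at 29.2, 16.7 and 17.8 CPM. The Shaker genes *Kcna1* (chr6:126640397-126646384) and *Kcna6* (chr6:126708329-126740674) lie 61.944 kb apart on chromosome 6 and had their highest mean in oligodendrocyte-like and interneuron-like nuclei. The antisense transcript *Kcnd3os* overlaps the start of *Kcnd3*, and *Kcnmb4os2* that of *Kcnmb4*, so reads of these pairs cannot be told apart if strand was ignored.

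The libraries were then compared with each other within a class, *Nav1* KO over C57BL/6J and BTBR over C57BL/6J. With 1 library for each group there is no test. Ratios carry exact 95% intervals from the counts, which cover counting error alone, and each comparison uses the same C57BL/6J library. For *Nav1* KO in excitatory-like nuclei 8 of 70 members with enough counts, or 11.4%, lay past 1.5-fold in either direction, against 12.7% of all genes. With nuclei placed by best-fitting profile it was 5 of 80 (6.25% against 13.2%). In interneuron-like nuclei it was 3 of 45, or 6.67%, against 18.5%. The interneuron-like share was not stable: it was 9 of 38 (23.7% against 21.4%) with the stricter gate, 5 of 30 (16.7% against 24.2%) after thinning each nucleus to 1000 UMIs, and 1 of 30 (3.33% against 11.9%) at 50 counts or more. In astrocyte-like nuclei it was 10 of 55, or 18.2%, against 21.6%. For BTBR the counts were 14 of 70 (20% against 18.6%) in excitatory-like, 7 of 49 (14.3% against 21.1%) in interneuron-like and 11 of 50 (22.0% against 21.5%) in astrocyte-like nuclei. In medium spiny neuron-like and oligodendrocyte-like nuclei the *Nav1* KO counts were 11 of 54 (20.4% against 16.7%) and 12 of 52 (23.1% against 22.4%), and the BTBR counts 13 of 58 (22.4% against 21.2%) and 13 of 51 (25.5% against 23.5%). The share of the members lay above that of all genes in 6 of these 10 comparisons and below it in 4. In interneuron-like nuclei both ratios compare unequally pruned classes. The olfactory bulb rule had set aside 260, 480 and 441 nuclei and left 418, 259 and 435. Its effect on these ratios was not tested on its own.

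*Kcnip4* had the best counted of these differences. It was at 231, 385 and 335 CPM in excitatory-like nuclei, a *Nav1* KO over C57BL/6J ratio of 1.67 (interval 1.57 to 1.77), and BTBR lay between. By subclass the *Nav1* KO ratio was 1.42 (interval 1.25 to 1.62) in layer 2/3, 1.94 (interval 1.47 to 2.56) in the middle layer and 2.74 (interval 2.02 to 3.78) in layer 6 corticothalamic-like nuclei. In the *Drd1* and *Drd2* subclasses of medium spiny neuron-like nuclei it was 1.79 (interval 1.44 to 2.24) and 1.9 (interval 1.5 to 2.43). In all kept nuclei the ratio was 1.58 (interval 1.54 to 1.63), and for BTBR 1.36 (interval 1.32 to 1.4). In interneuron-like nuclei the *Nav1* KO ratio was 1.1 (interval 0.876 to 1.38). In the *Sst* subclass it went the other way at 0.39 (interval 0.174 to 0.812), on 11 against 27 counts, and BTBR was at 0.818 (interval 0.448 to 1.48). C57BL/6J is also the library with the lowest median UMI count. With excitatory-like nuclei thinned to 1000 UMIs (1970, 2090 and 2062 nuclei, shallower ones left out) the *Nav1* KO ratio was 1.79 (interval 1.59 to 2.02).

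In excitatory-like nuclei *Kcns1* and *Kcnab3* were also higher in *Nav1* KO, with ratios of 1.76 (interval 1.1 to 2.88) and 1.52 (interval 1.04 to 2.26). After thinning they were 0.875 (interval 0.379 to 2.01) and 0.471 (interval 0.145 to 1.36), on 13 against 14 and 6 against 12 counts. *Kcnd3os* was higher in both of the other libraries, 2.27 (interval 1.13 to 4.94) in *Nav1* KO and 2.19 (interval 1.06 to 4.85) in BTBR, on 11 counts in C57BL/6J. After thinning its BTBR ratio was 0.764 (interval 0.152 to 3.55), on 4 against 5 counts. *Kcnh4* and *Kcnj2* were lower in *Nav1* KO at 0.625 (interval 0.493 to 0.792) and 0.62 (interval 0.47 to 0.817), though the *Kcnj2* ratio was 0.886 with the stricter gate and 0.859 after thinning. In interneuron-like nuclei *Kcnt2* and *Kcnv1* were lower in *Nav1* KO, 0.49 (interval 0.301 to 0.776) and 0.45 (interval 0.194 to 0.959). With best-fitting profiles the *Kcnv1* ratio was 0.908 (interval 0.62 to 1.32).

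In BTBR excitatory-like nuclei *Kcnv1* had a ratio of 0.545 (interval 0.478 to 0.62), from 93.1, 71.2 and 50.7 CPM in the libraries. *Kcnj13*, *Kcng3* and *Kcnk6* were lower as well, with ratios of 0.582 (interval 0.437 to 0.772), 0.553 (interval 0.352 to 0.859) and 0.479 (interval 0.236 to 0.938), and *Kcnv2*, a silent subunit, was higher at 2.19 (interval 1.06 to 4.85). After thinning the *Kcng3* ratio was 1.09 (interval 0.499 to 2.42) and the *Kcnk6* ratio 0.955. In interneuron-like nuclei *Kcns3* had 10 counts in BTBR and 69 in C57BL/6J, a ratio of 0.136 (interval 0.0624 to 0.265). Over all kept nuclei of BTBR its ratio was 0.24 (interval 0.176 to 0.323). The share of *Pvalb*-like nuclei among interneuron-like nuclei was 8.37, 11.6 and 6.44%. *Hcn2* was higher in this class at 2.21 (interval 1.22 to 4.15), and *Kcnh7* and *Kcnk9* were lower at 0.619 (interval 0.503 to 0.759) and 0.629 (interval 0.444 to 0.884).

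In astrocyte-like nuclei *Kcnd3* was higher in *Nav1* KO at 1.84 (interval 1.23 to 2.84). *Kcnj9*, *Kcnk9*, *Kcnab1* and *Kcnt2* were lower, at 0.577 (interval 0.44 to 0.758), 0.535 (interval 0.407 to 0.705), 0.515 (interval 0.344 to 0.774) and 0.585 (interval 0.374 to 0.921). All 4 were higher in excitatory-like than in astrocyte-like nuclei of every library, and the excitatory marker sum in astrocyte-like nuclei was 546, 537 and 533 CPM. *Snap25* stood there at 46.0, 42.5 and 46.0% of its excitatory-like level, and *Gad1* at 448, 287 and 343%. Of the classes compared, *Kcnab1* was highest in medium spiny neuron-like nuclei in every library. In BTBR *Kcnip3* had a ratio of 0.255 (interval 0.15 to 0.423), from 45.3, 32.4 and 11.5 CPM in the libraries. *Kcnj9*, *Kcnv1* and *Kcnab1* were lower at 0.553 (interval 0.415 to 0.737), 0.531 (interval 0.338 to 0.835) and 0.575 (interval 0.381 to 0.87). *Kcnv1*, like *Kcnj9* and *Kcnab1*, was higher in excitatory-like than in astrocyte-like nuclei of every library. Whether neuronal transcripts carry these astrocyte-like ratios was not tested. *Kcnj4* and *Kcnh1* were higher at 1.77 (interval 1.21 to 2.65) and 1.53 (interval 1.01 to 2.36). The *Kcnh1* ratio was 1.3 (interval 0.767 to 2.29) with the stricter gate and 1.21 (interval 0.731 to 2.08) with best-fitting profiles. It was 1.83 (interval 0.924 to 3.95) without the deepest nuclei and 2.34 (interval 1.05 to 5.91) after thinning. *Kcnj4* and *Kcnh1* had their highest mean in medium spiny neuron-like and excitatory-like nuclei, and the same limit applies to them.

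**Figure D5:**
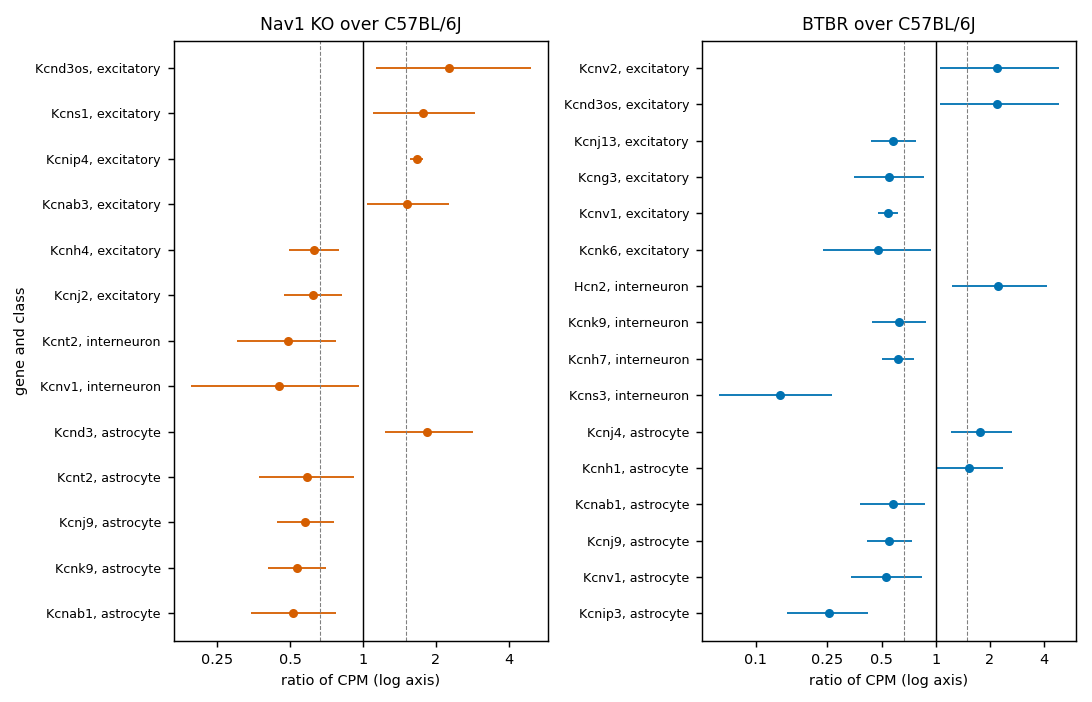
Ratio of CPM to the C57BL/6J library (log axis) for the named members by class, *Nav1* KO and BTBR in separate panels, with exact 95% intervals from the counts. The solid line marks a ratio of 1 and dashed lines 1.5-fold, *Kcnip4* has the narrowest interval, and *Kcns3* in BTBR interneuron-like nuclei has the lowest ratio.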

How the data were processed

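The authors deposited 1 filtered count matrix per library (UMI counts per gene and nucleus, made from 10x 3′ libraries with Cell Ranger 6.0.0 and the mm10 reference, per the submitters' processing notes). Whether intronic reads were counted, and the annotation release, are not given in the sources used here. A nucleus was kept if it had 200 genes or more and if mitochondrial genes held less than 10% of its counts.

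The members and gene lists were chosen with earlier results of these data known. A nucleus joined a class when at least 3 markers of its list (2 for excitatory and for subclasses) were found and that list led all others. Interneuron-like nuclei also had to lack the 6 olfactory bulb genes, except where nuclei were placed by best-fitting profile. These rules were set after the data were seen. No doublet caller was run, so a doublet could enter a class. An alternative leaves out nuclei above 2 times the median depth of their class in the same library.

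Counts were summed per class and library. CPM divides by all counts of those nuclei and has exact 95% Poisson intervals. A count of 0 is given the limit of 3 counts. Classes were compared with the quasi-likelihood test of edgeR 4.0.16 in R 4.3.3 with limma 3.58.1 (TMM, filterByExpr, library as a block, only the compared classes in a fit), and Benjamini-Hochberg adjustment ran over all genes tested. The filter asks for a minimum level in as many sums as a class has, so a gene could pass through its higher class alone. A member was called at adjusted p under 0.05 and at least 2-fold. Whether groups overlap describes the same values as the call and is no separate support for it. The block pairs the classes because they come from the same library. Library ratios needed at least 20 counts in 1 library, and their intervals come from the binomial split of counts. DESeq2 1.42.0, other scalings, filters, gates, thinning to 1000 UMIs and leaving out each library were alternatives. Steps were tested on simulated data. Python 3.11.15, numpy 2.4.6, scipy 1.17.1, pandas 2.3.3 and matplotlib 3.10.9 were used.

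Named genes are up to 6 called members per direction and contrast with at least 20 CPM in every library of the higher class, up to 4 library ratios per direction and class whose interval excludes 1, a list fixed by role, and the widest and narrowest ranges. Other called members are named where they complete a count or where 1 library decides their call, and were chosen after their values were seen. Coordinates come from GENCODE M21 (GRCm38), matched by Ensembl ID for 88 of 88 members. Protein sequences were not used here, and some members and sequences are not reported here.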

Additional observations from a re-analysis of the deposited data

How the results depend on the processing

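Across 79 called pairs of member and contrast, 850 values under the alternatives gave 755 on the same side of the limits, 95 that lost the call and none that reversed. Leaving out 1 library gave 23 to 27 members called between interneuron-like and excitatory-like nuclei, 9 to 11 for medium spiny neuron-like, 20 to 29 for astrocyte-like, 5 to 6 for oligodendrocyte-like, 7 to 8 for layer 6 and 5 to 7 for *Pvalb*-like nuclei. Without the library block, which pairs the classes of a library, these counts were 25, 10, 20, 4, 6 and 7, none of them 1.5 times from the value with it. No paired analysis was possible between genotypes because each group has 1 library.

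The stricter marker gate gave 17 called members for medium spiny neuron-like nuclei (11 of them lower), 5 for layer 6 and 3 for *Pvalb*-like nuclei, with fewer nuclei. Assigning nuclei by the best-fitting profile gave 11 for oligodendrocyte-like and 11 for *Pvalb*-like nuclei (5 higher and 6 lower). Leaving out deep nuclei gave 18 for medium spiny neuron-like and 15 for oligodendrocyte-like nuclei. DESeq2 gave 5 for layer 6 and 4 for *Pvalb*-like nuclei. For these class comparisons the share of all genes called is given only for the main setting. The counts under the alternatives therefore do not show a change particular to the members. The cause of these changes was not tested.

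Library ratios past 1.5-fold moved as follows. For *Nav1* KO in excitatory-like nuclei there were 4 members with the stricter gate, 5 with profiles, 5 with at least 50 counts and 5 after thinning to 1000 UMIs. In interneuron-like nuclei there were 9 of 38 with the stricter gate (23.7% against 21.4%) and 5 of 62 with profiles (8.06% against 14.6%). After division by the median ratio there were 5 of 45 (11.1% against 16.7%). With at least 50 counts there was 1 of 30 (3.33% against 11.9%), and after thinning 5 of 30 (16.7% against 24.2%). In astrocyte-like nuclei there were 5 of 37 with at least 50 counts (13.5% against 15.7%). For BTBR with at least 50 counts there were 8 of 59 members in excitatory-like nuclei (13.6% against 14.3%). There were 3 of 33 in interneuron-like (9.09% against 15.3%) and 6 of 34 in astrocyte-like nuclei (17.6% against 16.2%). After thinning there were 9 of 57 in excitatory-like nuclei (15.8% against 20.1%). The 29 single ratios chosen by the rule for named genes gave 116 values under the stricter gate, profiles, no deep nuclei and thinning. Of these, 103 lay within the counting interval of the reported ratio, 9 lay outside it in the same direction and 4 reversed, all after thinning: *Kcns1* and *Kcnab3* in *Nav1* KO (0.875 and 0.471) and *Kcnd3os* and *Kcng3* in BTBR (0.764 and 1.09), in excitatory-like nuclei. Members with the same highest class in all 3 libraries numbered 32 with the stricter gate, 43 with profiles and 39 without deep nuclei. The share of all genes in these settings is not given here. Small classes limit what depth can show: the 28 to 35 *Pvalb*-like nuclei of a library left 24 members testable, and neuronal transcripts present in glia-like classes limit the losses that can be seen there.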

Other observations

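Nuclei that resembled mitral or tufted neurons of the olfactory bulb were frequent in *Nav1* KO (231) and BTBR (146) but not in C57BL/6J (17). They entered no comparison between classes but are part of the values over all kept nuclei. These are the excitatory projection neurons of the bulb. In the *Nav1* KO and BTBR libraries *Kcnc1* was at 592 and 320.1 CPM there, against 119 and 124 CPM in excitatory-like nuclei of the same libraries. *Kcna2* was at 413 and 302 CPM, against 121 and 116 CPM. *Hcn3* was at 47.4 and 61.0 CPM, against 15.0 and 20.3 CPM, and *Hcn4* at 15.0 and 15.2 CPM, against 2.93 and 3.25 CPM. *Kcnab3* was at 48.9 and 29.1 CPM, against 9.77 and 8.84 CPM. These genes were picked after their values were seen, and the differences were not tested.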
